A study of Mus musculus with 12 samples.

Results

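The 41 genes described here encode the secretory machinery of the endoplasmic reticulum (ER) and the stress pathways that adjust it. They were chosen by symbol for their role, and all 41 have a row among the 17445 genes of the LMPP table, the 16821 of the CD115-CDP table and the 16896 of the BM pDC table. They fall into 5 role groups: 3 sensors and transcription factors, 5 genes of the ATF4 arm, 15 chaperones and foldases, 8 genes of ER-associated degradation, and 10 genes of translocation and signal peptide removal. The genes outside the ATF4 arm other than Atf6 and Ern1 are called XBP1-type secretory genes (34 genes, Xbp1 included).

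RNA-seq was performed on FACS-sorted LMPPs (lymphoid-primed multipotent progenitors), CD115-CDPs (common dendritic cell progenitors without the receptor CD115) and BM pDCs (bone marrow plasmacytoid dendritic cells) of C57BL/6 mice. The HDAC3-deficient cells came from Hdac3fl/fl CreERT2 mice, and the control cells from Hdac3fl/fl mice with no Cre. Both genotypes carried the loxP-flanked Hdac3 alleles and both received tamoxifen for 5 days, with sorting 7 days later, and there were 2 libraries for each genotype in each cell type. CreERT2 was driven from the widely expressed Rosa26 locus, so deletion was not limited to dendritic cells, and effects of active Cre and of HDAC3 loss cannot be told apart. Nothing says that the 2 libraries of a group came from separate mice, so the p-values measure only the spread between libraries, which may be technical.

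A secreted or membrane protein enters the ER through the SEC61 channel, loses its signal peptide, is folded by chaperones such as BiP (Hspa5), and is sent to the proteasome by ER-associated degradation if it fails to fold. When unfolded protein accumulates, IRE1 (Ern1) splices the Xbp1 mRNA and ATF6 is cleaved, and both factors induce chaperone and degradation genes. The kinase PERK instead slows translation and raises ATF4, which induces genes of amino acid supply and, under strong stress, CHOP (Ddit3). pDCs are known for a large ER and abundant XBP1, which serve the secretion of type I interferon.

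The DNA element through which ATF6, XBP1 and the factor NF-Y act is the ER stress response element, ERSE. The RefSeq promoters (build GRCm38.p6, 250 bases before to 50 bases after each start site) of 34 of the 41 genes were searched on both strands. The genes Atf6, Manf, Hyou1, Derl1, Sec61a1, Ssr2 and Spcs3 had no entry. ERSE, written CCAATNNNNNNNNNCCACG, was found in 9 of the 34 promoters (26.5%), against 37 of the 27025 genes with a promoter (0.137%). The 9 were Hspa5, Hsp90b1, Calr, Canx, Pdia6, Dnajc3, Creld2, Derl3 and Syvn1, that is 7 of 13 chaperones and foldases and 2 of 7 degradation genes, and none of the 5 ATF4-arm promoters held it. Several of these genes are textbook ERSE genes, so the share describes the choice of members as much as their promoters. The stretches of these genes other than Calr and Syvn1 are shown with the matches in capitals, each 5′ to 3′ along the gene's strand. Where the match lies on the opposite strand the element reads as CGTGG followed by ATTGG.
Hspa5 (chr2:34772010-34772058, + strand): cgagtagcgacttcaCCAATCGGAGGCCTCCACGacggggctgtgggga
Hsp90b1 (chr10:86705518-86705671, - strand): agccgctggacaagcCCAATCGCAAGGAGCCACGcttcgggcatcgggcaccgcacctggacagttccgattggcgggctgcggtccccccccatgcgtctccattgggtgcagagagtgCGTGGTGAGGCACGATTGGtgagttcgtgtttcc
Canx (chr11:50325785-50325833, - strand): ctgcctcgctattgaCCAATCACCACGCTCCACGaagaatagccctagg
Pdia6 (chr12:17266476-17266524, + strand): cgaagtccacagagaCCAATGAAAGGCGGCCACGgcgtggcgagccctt
Dnajc3 (chr14:118937812-118937860, + strand): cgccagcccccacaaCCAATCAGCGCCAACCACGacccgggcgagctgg
Creld2 (chr15:88819505-88819553, + strand): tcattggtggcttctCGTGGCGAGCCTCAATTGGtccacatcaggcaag
Derl3 (chr10:75893227-75893275, + strand): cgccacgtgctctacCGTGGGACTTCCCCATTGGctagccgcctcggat

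The element of the ATF4 arm is the C/EBP-ATF element, TGATGNAA, to which ATF4 binds with a C/EBP partner. It was found in the promoters of Asns, Chac1 and Trib3, 3 of the 5 ATF4-arm genes, and otherwise only in that of Herpud1, against 1219 of 27025 genes (4.51%). The Herpud1 promoter also held ERSE-II, ATTGGNCCACG, which occurred in 12 of 27025 genes (0.0444%) and in Herpud1 and Dnajb11 among the members. The Trib3 match lies 15 or more bases after the start site and is not shown.
Asns (chr6:7693210-7693247, - strand): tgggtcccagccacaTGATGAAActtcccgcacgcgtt
Chac1 (chr2:119351034-119351071, + strand): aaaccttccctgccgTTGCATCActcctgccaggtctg
Herpud1 (chr8:94386302-94386402, + strand): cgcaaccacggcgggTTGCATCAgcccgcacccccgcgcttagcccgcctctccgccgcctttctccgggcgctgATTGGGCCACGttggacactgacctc
The shorter sequence CCACG, part of ERSE and of ERSE-II, was found in 27 of the 34 promoters (79.4%) and in 35.5% of all genes with a promoter. The core TGACGTG of a further element bound by XBP1 and ATF6 was found in the Hspa5 promoter alone among the members, against 2.22% of all genes. A match describes letters in this window and not binding.

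The libraries were compared before the members. Hdac3, the deleted gene, stood at 16.9 and 9.87 FPKM in HDAC3-deficient LMPPs against 56.5 and 66.4 FPKM in control LMPPs, at 12.1 and 0.93 against 58.2 and 39.6 FPKM in CD115-CDPs, and at 15.6 and 15.9 against 38.9 and 37.8 FPKM in BM pDCs. FPKM is the number of fragments scaled to transcript length and to the mapped fragments of the library. The pDC libraries held 18117747.86 to 18462220.42 expected counts each, while the depth of the other libraries is unknown. Fewer genes were detected in HDAC3-deficient CD115-CDP library 2 (11288, where its companions ranged between 13684 and 15173). In control LMPP library 1 the 8 erythroid genes summed to 9276 FPKM, where the remaining LMPP libraries ranged between 102.7 and 275.4 FPKM.

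As a check of the labels, 10 pDC genes summed to 5314 to 10700 FPKM in the pDC libraries and to 308.3 to 352.3 FPKM in the LMPP libraries. The 3 tables were normalised separately, so levels in different cell types are described and not tested. The secretory genes were abundant in all 3 populations. Calr, a lectin chaperone, and Hspa5 ranked at or above at least 98.7% of the genes of the table in control and in HDAC3-deficient cells of each type. In control cells Xbp1 stood at 76.6 and 67.4 FPKM in LMPPs, 81.7 and 73.2 FPKM in CD115-CDPs and 211 and 223 FPKM in BM pDCs. Hyou1, an ER chaperone of the HSP110 family, stood at 8.73 and 7.99 FPKM in control LMPPs, 11.6 and 15.9 FPKM in control CD115-CDPs and 69.5 and 72.5 FPKM in control BM pDCs. Asns, the asparagine synthetase induced by ATF4, ran the other way, with 29.9 and 13.6 FPKM in control LMPPs, 3.48 and 9.48 FPKM in control CD115-CDPs and 0.28 and 0.86 FPKM in control BM pDCs. Trib3, a pseudokinase that is an ATF4 target and a brake on ATF4, followed the same order in control cells, with 5.50 and 5.20 FPKM in LMPPs, 0.53 and 0 FPKM in CD115-CDPs, and 0.05 and 0.08 FPKM in BM pDCs.

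In BM pDCs the 2 arms moved apart. Of 40 members tested, 18 were lower in HDAC3-deficient pDCs (45%), against 22.5% of all 12716 genes tested, and 5 were higher (12.5%), against 21.6% of all genes. All 18 genes that fell were XBP1-type secretory genes, 18 of 34 (52.9%). Of the 4 ATF4-arm genes tested 3 rose, namely Ddit3, Trib3 and Asns. Trib3 had 2 and 3 counts in control pDCs and entered the test only through its HDAC3-deficient libraries, so its call adds no support. With at least 50 counts in 2 libraries required, or with limma on FPKM, Trib3 was not tested and 2 arm genes rose. Under those filters Asns entered only through its HDAC3-deficient libraries. The median log2 change was −0.29 for the XBP1-type genes and 1.65 for the ATF4 arm, against −0.01 for all genes. The arm median covers 4 genes and depends on Trib3. Without Trib3 it was 0.71 under the filter of 50 counts and 0.51 with limma on FPKM. The XBP1-type median was then −0.28 and −0.43, against −0.01 and −0.15 for all genes. Calls are edgeR quasi-likelihood tests on counts with Benjamini-Hochberg adjusted p below 0.05 over all genes. The fitted changes lie a median of 0.13 log2 above the ratio of mean FPKM (the median log2 ratio of mean FPKM over all genes was −0.14), since the fit rescales the libraries and FPKM does not. In FPKM, 29 members were lower in both HDAC3-deficient libraries than in either control library (72.5%), against 48.9% of all genes tested, and 5 were higher in both (12.5%), against 27.2%. Fewer members, and fewer of all genes, passed without control library 1 and without control library 2. There the XBP1-type medians were −0.30 and −0.28 and the ATF4-arm medians 1.37 and 1.83, against −0.01 and −0.003 for all genes. The remaining library was assumed to vary like those of the other genotype.

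**Figure D1:**
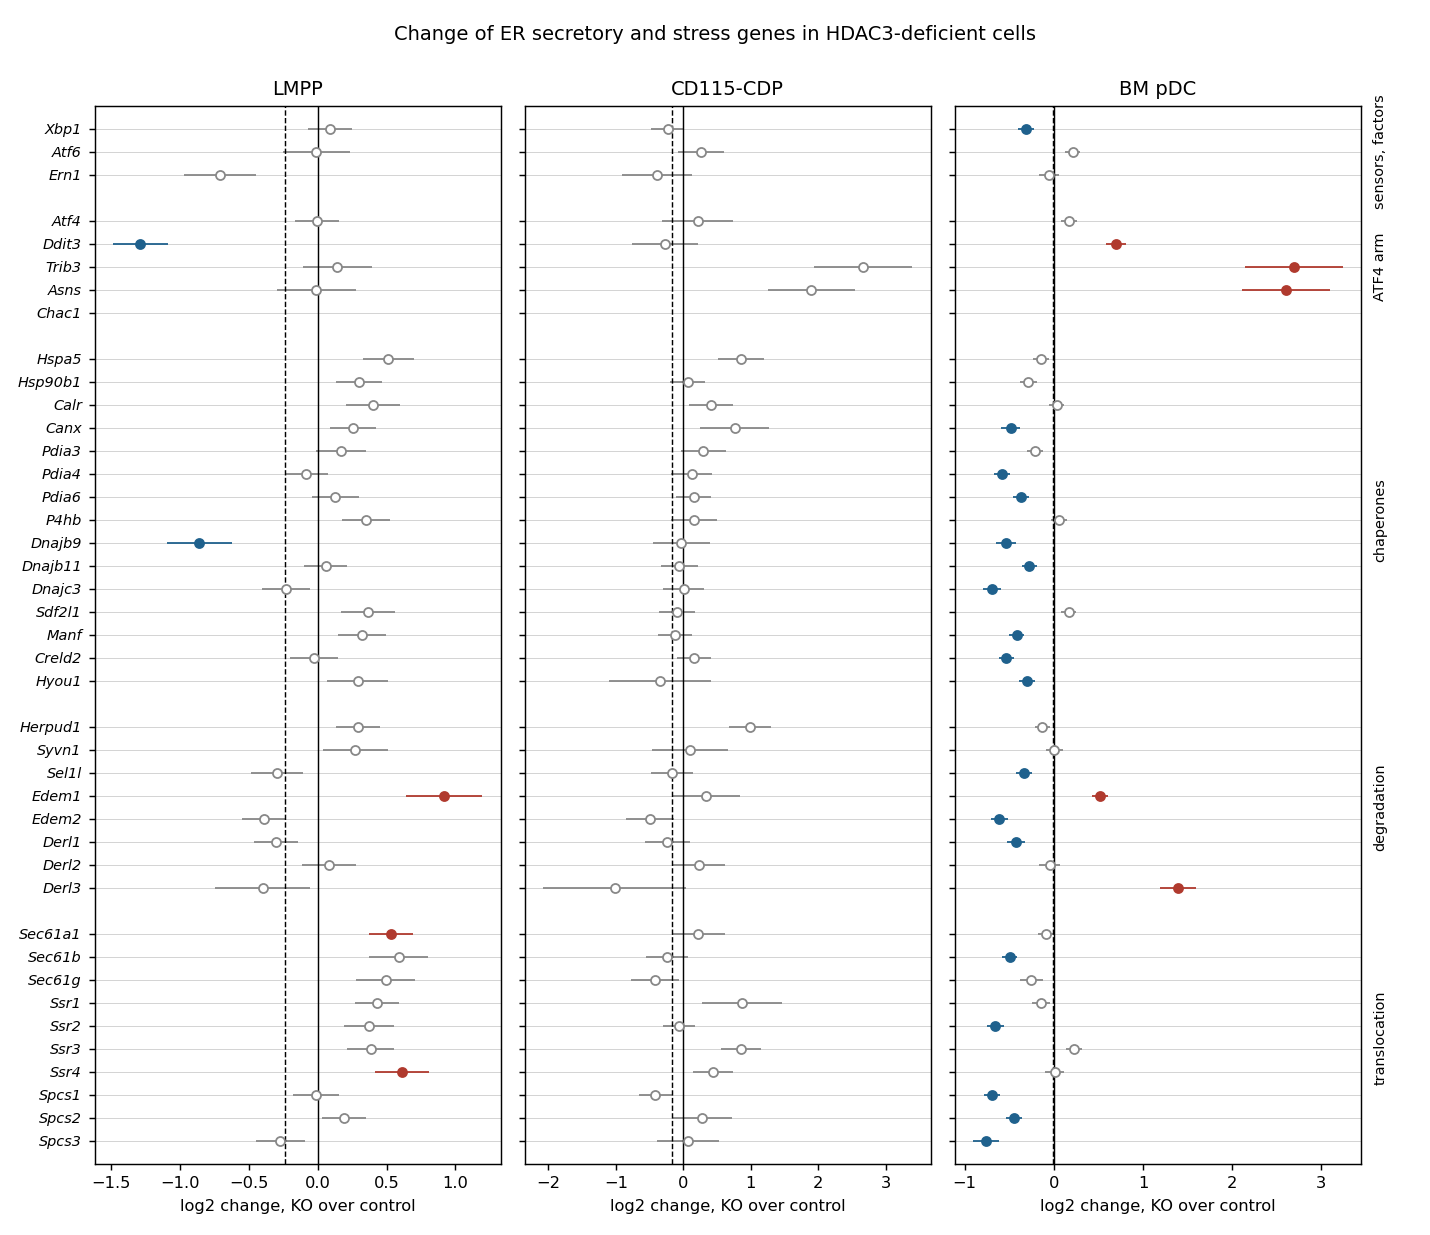
Log2 change of each tested member (HDAC3-deficient over control, horizontal axis, with its standard error) in LMPPs, CD115-CDPs and BM pDCs, grouped by role; horizontal scales differ. Filled points passed the test at an adjusted p below 0.05 (red higher, blue lower in HDAC3-deficient cells), and the dashed line is the median of all genes tested (−0.24 in LMPPs, −0.16 in CD115-CDPs, −0.01 in pDCs); Chac1 was not tested.

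Among the sensors and transcription factors, Xbp1 fell in pDCs. It had 161 and 158 FPKM in HDAC3-deficient pDCs against 211 and 223 FPKM in control pDCs, and the libraries of the genotypes did not overlap. The fitted change was 0.806-fold (log2 −0.31 ± 0.09 SE, edgeR adjusted p = 0.024), and it did not pass without control library 1, without control library 2 or with a replicate block (largest adjusted p 0.25). The value covers all Xbp1 transcripts, and the spliced form was not analysed here. Atf6 stood at 30.3 and 28.1 FPKM in HDAC3-deficient pDCs against 28.3 and 27.0 FPKM in control pDCs, and Ern1 at 22.7 and 20.4 against 27.0 and 22.2 FPKM. The libraries of the genotypes overlapped for both, and neither passed.

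The ATF4 arm stood out by its targets and not by Atf4 itself. Atf4 mRNA had 224 and 235 FPKM in HDAC3-deficient pDCs against 219 and 231 FPKM in control pDCs, and did not pass (log2 0.17 ± 0.09 SE, edgeR adjusted p = 0.18). ATF4 is regulated mainly through its translation, which RNA-seq does not measure. Ddit3, which encodes CHOP, had 30.9 and 34.3 FPKM in HDAC3-deficient pDCs against 23.5 and 22.1 FPKM in control pDCs. Both HDAC3-deficient libraries were above both controls, and the fitted change was 1.62-fold (log2 0.70 ± 0.11 SE, edgeR adjusted p = 0.0022). Asns had 4.25 and 2.14 FPKM in HDAC3-deficient pDCs against 0.28 and 0.86 FPKM in control pDCs, or 150 and 76 counts against 10 and 30. The fold was 6.08 (log2 2.60 ± 0.50 SE, edgeR adjusted p = 0.0052) and the genotypes did not overlap. Trib3 rested on 14 and 17 counts in HDAC3-deficient pDCs against 2 and 3 counts in control pDCs. The ratio of the summed counts was 6.14, with an exact 95% interval of 2.37 to 20.2 that covers counting error only, and the edgeR adjusted p was 0.0068. Trib3 did not pass with DESeq2 or without either control library (largest adjusted p 0.083). Chac1, which degrades glutathione, was too low to test, with 7 and 5 counts in HDAC3-deficient pDCs against 1 and 1 in control pDCs. Its ratio was 5.95, with an exact 95% interval of 1.32 to 54.7.

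Among the chaperones and foldases, 9 of 15 fell in pDCs (60%), against 22.5% of all genes tested, and none rose, against 21.6%. In FPKM, 14 of the 15 had both HDAC3-deficient libraries below both controls (93.3%), against 48.9% of all genes tested. The exception was Sdf2l1, with 38.6 and 35.0 FPKM against 36.3 and 35.7 FPKM in control pDCs. Dnajc3 (p58IPK), an ER co-chaperone and inhibitor of PERK, had 27.8 and 23.5 FPKM in HDAC3-deficient pDCs against 42.9 and 48.2 FPKM in control pDCs. It changed 0.617-fold (log2 −0.70 ± 0.10 SE, edgeR adjusted p = 0.0018), and every HDAC3-deficient library was low. Pdia4, a protein disulfide isomerase, had 45.3 and 41.2 FPKM in HDAC3-deficient pDCs against 68.5 and 73.4 FPKM in control pDCs, a change of 0.667-fold. Creld2, an ER protein with disulfide isomerase activity, had 36.0 and 36.0 FPKM against 57.8 and 56.7 FPKM in control pDCs, a change of 0.690-fold. The ER J-protein Dnajb9 (ERdj4), a textbook XBP1 target, had 56.9 and 46.1 FPKM in HDAC3-deficient pDCs against 76.1 and 87.6 FPKM in control pDCs (0.690-fold). Canx, the membrane-bound lectin chaperone calnexin, had 79.5 and 64.2 FPKM in HDAC3-deficient pDCs against 105.6 and 114.6 FPKM in control pDCs (0.715-fold). The other chaperone calls, Manf, Pdia6, Hyou1 and Dnajb11, lay between 0.748-fold and 0.827-fold. Without control library 1 there were 4 of these 9 calls left (Creld2, Dnajb9, Dnajc3 and Pdia4), and without control library 2 there were 3 (Creld2, Dnajc3 and Pdia4). Canx, Manf, Pdia6, Hyou1 and Dnajb11 did not pass without either one (largest adjusted p 0.24), and Hyou1 and Dnajb11 did not pass with a replicate block.

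BiP itself did not pass in pDCs. Hspa5 had 342 and 310 FPKM in HDAC3-deficient pDCs against 381 and 411 FPKM in control pDCs, and the fitted change was 0.905-fold (log2 −0.14 ± 0.09 SE, edgeR adjusted p = 0.25). The soluble partner of calnexin, Calr, likewise had a fitted change near 1 (1.02-fold), as did P4hb, the main protein disulfide isomerase (1.04-fold). Both were lower in FPKM in the HDAC3-deficient libraries, within the scale difference given above. Hsp90b1, the ER member of the HSP90 family (GRP94), was at 0.821-fold, just outside the threshold (edgeR adjusted p = 0.054).

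Of the 8 genes of ER-associated degradation, 2 rose (25%) and 3 fell (37.5%) in pDCs. Over all genes tested 21.6% rose and 22.5% fell, so calls in both directions do not set this short list apart. Edem2, a mannosidase-like protein that starts the trimming of misfolded glycoproteins, had 72.4 and 62.3 FPKM in HDAC3-deficient pDCs against 108.4 and 113.6 FPKM in control pDCs, a change of 0.655-fold (log2 −0.61 ± 0.09 SE, edgeR adjusted p = 0.0018). Its relative Edem1 rose, with 37.1 and 32.6 FPKM in HDAC3-deficient pDCs against 27.1 and 26.5 FPKM in control pDCs, a change of 1.43-fold (log2 0.51 ± 0.09 SE, adjusted p = 0.0036). The derlins, membrane proteins through which misfolded proteins leave the ER, also parted. Derl3 had 7.36 and 9.17 FPKM in HDAC3-deficient pDCs against 2.90 and 4.01 FPKM in control pDCs, a change of 2.63-fold (log2 1.39 ± 0.20 SE, edgeR adjusted p = 0.0017). Derl1 had 34.9 and 28.7 FPKM in HDAC3-deficient pDCs against 45.5 and 47.7 FPKM in control pDCs (0.748-fold), while Derl2 overlapped and did not pass (0.970-fold). Sel1l, the adaptor of the HRD1 ubiquitin ligase, fell to 0.793-fold, and Syvn1, the ligase itself, was at 1.004-fold. Edem1 did not pass without control library 1 or 2 (largest adjusted p 0.069), nor did Derl1 and Sel1l (largest 0.12 and 0.21), whereas Edem2 and Derl3 passed in all 10 alternatives run.

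Of the 10 genes of protein entry, 5 fell in pDCs (50%), against 22.5% of all genes tested, and 0 were called higher, against 21.6%. Spcs1, a subunit of the signal peptidase complex, had the smallest p of all members in pDCs, with 40.8 and 39.6 FPKM in HDAC3-deficient pDCs against 69.1 and 73.6 FPKM in control pDCs. Its change was 0.618-fold (log2 −0.69 ± 0.09 SE, edgeR adjusted p = 0.00078), with a gap between genotypes far wider than that between replicates. Spcs3, of the same complex, had 45.0 and 32.1 FPKM in HDAC3-deficient pDCs against 67.3 and 75.6 FPKM in control pDCs (0.591-fold), and Spcs2 fell to 0.736-fold. Spcs1 and Spcs3 passed in all 10 alternatives, and Spcs2 did not pass without control library 1 or 2 (largest adjusted p 0.11). Ssr2, the beta subunit of the translocon-associated TRAP complex, had 89.5 and 92.5 FPKM in HDAC3-deficient pDCs against 149.3 and 165.4 FPKM in control pDCs (0.635-fold, edgeR adjusted p = 0.0015). The other TRAP subunits did not pass, at 0.904-fold for Ssr1, 1.17-fold for Ssr3 and 1.01-fold for Ssr4. Ssr3 leaned upward (edgeR unadjusted p = 0.044, adjusted p = 0.086). In the SEC61 channel, the beta subunit Sec61b fell to 0.709-fold, with 195 and 192 FPKM in HDAC3-deficient pDCs against 292 and 307 FPKM in control pDCs, and did not pass without control library 2 (edgeR adjusted p = 0.057). The pore subunit Sec61a1 (0.937-fold) and the gamma subunit Sec61g (0.839-fold) did not pass. Within the TRAP and SEC61 complexes 1 subunit each passed and the others did not; the difference between subunits was not tested.

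**Figure D2:**
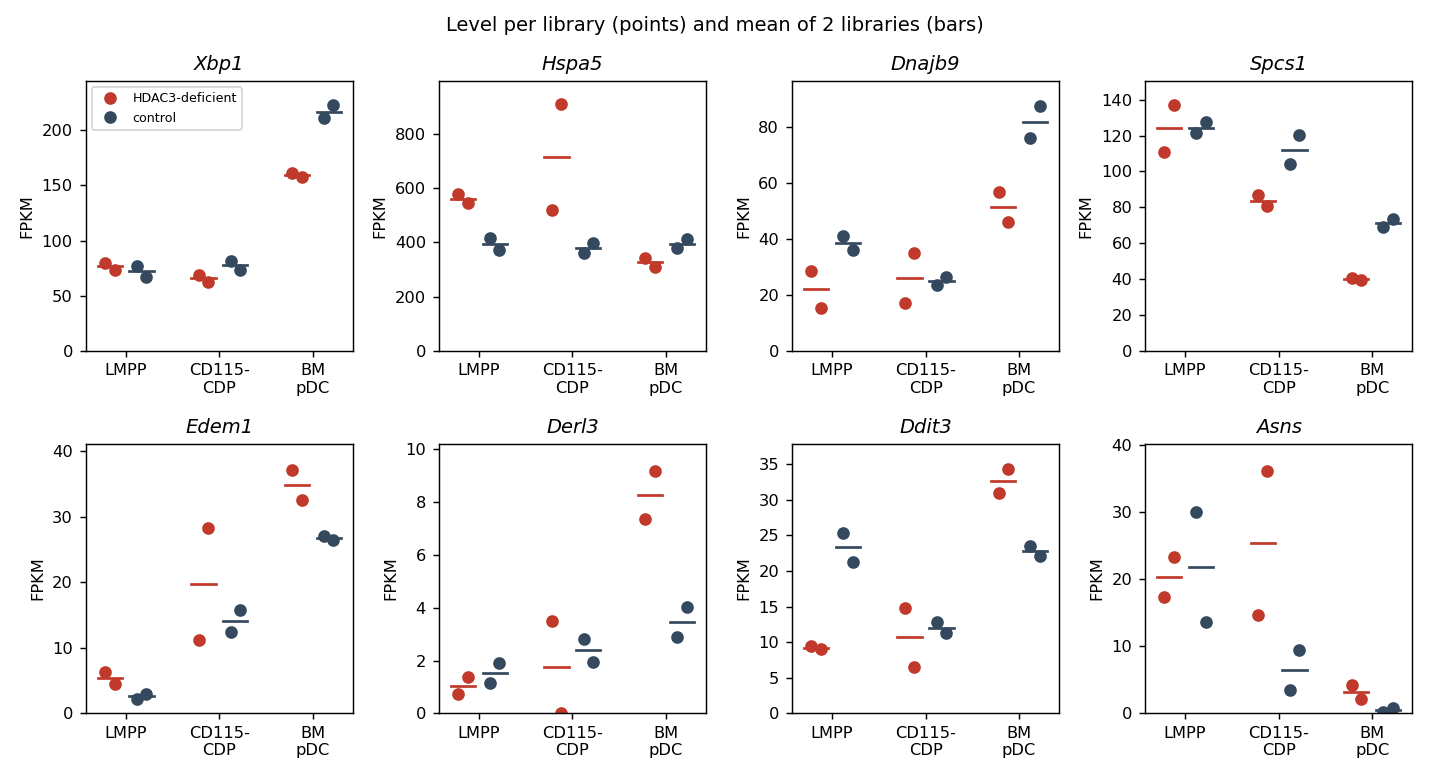
FPKM of 8 members in each library (points; short bars are means of 2 libraries) of LMPPs, CD115-CDPs and BM pDCs, with HDAC3-deficient cells on the left (red) and control cells on the right (blue) of each pair. Spcs1 in pDCs is at 40.8 and 39.6 FPKM against 69.1 and 73.6 FPKM in controls, Ddit3 is below its controls in LMPPs and above them in pDCs, and the HDAC3-deficient CD115-CDP libraries are far apart for Hspa5, Edem1 and Asns.

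Of the 9 members whose promoters hold ERSE, 4 fell in pDCs (Canx, Pdia6, Dnajc3 and Creld2), 1 rose (Derl3) and 4 did not pass (Hspa5, Hsp90b1, Calr and Syvn1). Their median log2 change was −0.28, against −0.25 for the 19 XBP1-type genes with a promoter without ERSE, 9 of which fell and 1 of which rose. Over all genes tested in pDCs 22.5% fell and 21.6% rose. The lists are short and no difference between them was tested.

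Other cell markers moved with genotype in pDCs. Of 10 pDC marker genes 6 fell and none rose, and their FPKM summed to 5697 and 5314 in HDAC3-deficient pDCs against 10290 and 10700 in control pDCs. Of 12 B cell and plasma cell genes, 11 were tested and 5 fell (Mzb1, Sdc1, Cd79b, Ebf1 and Prdm1), with sums of 67.6 and 71.5 FPKM in HDAC3-deficient pDCs against 144.4 and 158.9 FPKM in control pDCs. Mzb1, an ER protein of antibody-secreting B cells that pDCs also express, had 15.9 and 11.01 FPKM in HDAC3-deficient pDCs against 65.0 and 71.7 FPKM in control pDCs, while the B cell gene Ms4a1 stayed at or below 0.58 FPKM in every pDC library. Of 7 granulocyte progenitor genes 4 rose, with sums of 352 and 258 FPKM in HDAC3-deficient pDCs against 201 and 221 FPKM in control pDCs. Of 7 genes of conventional dendritic cells 3 rose (Batf3, Zbtb46 and Clec9a) and 2 fell (Clec10a and Cd209a), with sums of 398 and 377 FPKM in HDAC3-deficient pDCs against 449 and 448 FPKM in control pDCs. Clec9a, a receptor for dead cells, had 208 and 196 FPKM in HDAC3-deficient pDCs against 46.3 and 51.2 FPKM in control pDCs (4.52-fold). Of 6 CDP genes 3 rose (Kit, Csf1r and Cd34), with sums of 1890 and 1948 FPKM in HDAC3-deficient pDCs against 2210 and 2087 FPKM in control pDCs. Of the 6 stem and multipotent progenitor genes tested Kit and Cd34 rose and Meis1 fell, with sums of 439 and 469 FPKM against 381 and 417 FPKM. Of the 6 macrophage genes tested 2 fell and none rose, and 1 gene each rose and none fell among the tested neutrophil, erythroid, megakaryocyte, and T and NK cell genes. The part of these shifts in the changes of the secretory genes was not tested, and in sorted bulk samples fewer cells of a type and less RNA per cell cannot be told apart.

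In LMPPs few members passed, and the leaning of the secretory genes was upward. Of 40 members tested, 3 were higher in HDAC3-deficient LMPPs (Edem1, Sec61a1 and Ssr4; 7.5%), against 4.31% of all 11146 genes tested, and 2 were lower (Ddit3 and Dnajb9; 5%), against 18.8% of all genes. Calls are limma tests on log2(FPKM + 0.5), a scale on which the change of low genes is understated. The median log2 change was 0.27 for the XBP1-type genes and −0.01 for the ATF4 arm, against −0.24 for all genes, and scaling the libraries by their median ratio moved the all-gene median to −0.00. Relative to that median, the XBP1-type genes lay 0.50 higher and 28 of 34 lay above it. With quantile normalization the XBP1-type median was 0.16 and that of all genes 0.03, a smaller distance. In FPKM, 20 members were higher in both HDAC3-deficient libraries than in either control library (50%), against 17.6% of all genes tested, and 8 were lower in both (20%), against 48.2%. The higher calls were lost without control library 1 and without control library 2, where fewer of all genes passed too. The XBP1-type medians were there 0.27 and 0.19, against −0.23 and −0.18 for all genes. Without HDAC3-deficient library 1 and without library 2 they were 0.20 and 0.16, against −0.30 and −0.18.

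Ddit3 fell in LMPPs, opposite to its rise in pDCs. It had 9.43 and 9.01 FPKM in HDAC3-deficient LMPPs against 25.3 and 21.3 FPKM in control LMPPs, a change of 0.410-fold (log2 −1.29 ± 0.20 SE, limma adjusted p = 0.00057). It passed in all 12 alternatives run. The other genes of the arm did not pass: Atf4 had 99.7 and 113.2 FPKM in HDAC3-deficient LMPPs against 104.1 and 109.2 FPKM in control LMPPs, and the libraries of the genotypes overlapped. Trib3 had 6.87 and 5.15 FPKM in HDAC3-deficient LMPPs against 5.50 and 5.20 FPKM in control LMPPs. Asns had 17.3 and 23.3 FPKM in HDAC3-deficient LMPPs against 29.9 and 13.6 FPKM in control LMPPs, the controls lying on either side. Chac1, not tested, had 0.57 and 0.55 FPKM against 0.21 and 0.25 FPKM.

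Dnajb9 was the chaperone that fell in LMPPs, with 28.6 and 15.3 FPKM in HDAC3-deficient LMPPs against 41.02 and 36.0 FPKM in control LMPPs. Its change was 0.551-fold (log2 −0.86 ± 0.24 SE, limma adjusted p = 0.019), and it passed in 7 of 12 alternatives. The call was lost without HDAC3-deficient library 2, without a filter, with median-ratio scaling, with quantile normalization and without the variance trend (limma adjusted p between 0.067 and 0.15). The sensor gene Ern1 was lower without passing, with 9.46 and 5.94 FPKM in HDAC3-deficient LMPPs against 10.3 and 15.4 FPKM in control LMPPs (limma adjusted p = 0.063). Xbp1 had 79.7 and 73.4 FPKM in HDAC3-deficient LMPPs against 76.6 and 67.4 FPKM in control LMPPs, and Atf6 had 7.75 and 5.72 against 6.31 and 7.13 FPKM. Both overlapped between genotypes.

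Hspa5 and the large chaperones were higher in both HDAC3-deficient LMPP libraries without passing. Hspa5 had 578 and 545 FPKM in HDAC3-deficient LMPPs against 417 and 371 FPKM in control LMPPs (log2 0.51 ± 0.18 SE, limma adjusted p = 0.057). Calr had 759 and 805 FPKM in HDAC3-deficient LMPPs against 570 and 613 FPKM in control LMPPs (adjusted p = 0.14 by limma). Sdf2l1, a component of the BiP chaperone cycle, had 101 and 144 FPKM against 107 and 81.4 FPKM in control LMPPs, with overlap. In all, 9 of the 15 chaperones and foldases were higher in both HDAC3-deficient libraries than in either control (60%), against 17.6% of all genes tested.

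Of the 5 role groups, the translocation genes had the largest share higher without overlap in LMPPs, 8 of 10 (80%), against 17.6% of all genes tested. Only 2 of them passed. Sec61a1 had 165 and 156 FPKM in HDAC3-deficient LMPPs against 105 and 117 FPKM in control LMPPs, a change of 1.45-fold (log2 0.53 ± 0.16 SE, limma adjusted p = 0.029). Ssr4, the delta subunit of TRAP, had 193 and 290 FPKM in HDAC3-deficient LMPPs against 153 and 157 FPKM in control LMPPs, a change of 1.53-fold (log2 0.61 ± 0.19 SE, limma adjusted p = 0.035). The short subunits Sec61b (313 and 507 FPKM in HDAC3-deficient LMPPs against 280 and 250 FPKM in control LMPPs) and Sec61g (156 and 264 against 154 and 134 FPKM) did not pass. Library 2 of the HDAC3-deficient LMPPs was the high one for Ssr4, Sec61b and Sec61g alike. Sec61a1 passed in 7 of 12 alternatives and Ssr4 in 6 of 12. Both were lost without control library 1, without control library 2, without a filter, with quantile normalization and without the variance trend, and Ssr4 also without HDAC3-deficient library 2 (largest adjusted p 0.28 for Sec61a1 and 0.17 for Ssr4). In the degradation group Edem1 rose, with 6.25 and 4.56 FPKM in HDAC3-deficient LMPPs against 2.27 and 2.96 FPKM in control LMPPs, a change of 1.89-fold (log2 0.92 ± 0.28 SE, limma adjusted p = 0.029). It passed in 7 of 11 alternatives, and not without control library 1, without control library 2, without HDAC3-deficient library 1 or without a filter (largest adjusted p 0.20). With quantile normalization the 3 members called higher were Edem1, Hyou1 and Syvn1. Edem2 had 82.9 and 77.4 FPKM in HDAC3-deficient LMPPs against 103.9 and 106.3 FPKM in control LMPPs, both below both controls, and did not pass (limma adjusted p = 0.083). Derl3 was close to the filter of 1 FPKM, with 0.73 and 1.37 FPKM against 1.15 and 1.92 FPKM.

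Markers of granulocyte progenitors, which make large amounts of secretory granule protein, moved with genotype in LMPPs. Of 7 such genes 3 rose (Mpo, Ctsg and Ms4a3) and 1 fell (Fcnb), and their FPKM summed to 4663 and 5583 in HDAC3-deficient LMPPs against 2297 and 2742 in control LMPPs. All 8 neutrophil genes fell, with sums of 52.3 and 26.2 FPKM against 635 and 444 FPKM. Of 7 stem and multipotent progenitor genes 4 fell, with sums of 1118 and 1054 FPKM in HDAC3-deficient LMPPs against 1538 and 1650 FPKM in control LMPPs. All 5 megakaryocyte genes tested fell, with sums of 24.6 and 21.7 FPKM in HDAC3-deficient LMPPs against 103.4 and 104.8 FPKM in control LMPPs. Of 5 B cell and plasma cell genes tested 3 fell (Cd79a, Sdc1 and Jchain), with sums of 60.7 and 60.3 FPKM in HDAC3-deficient LMPPs against 92.8 and 101.2 FPKM in control LMPPs. Of 8 pDC genes tested 1 rose and 4 fell (sums of 341 and 352 FPKM against 308.3 and 317.3 FPKM in control LMPPs). Among T and NK cell genes Nkg7 rose and Klrb1c fell (367 and 451 FPKM against 229 and 225 FPKM in control LMPPs), and among CDP genes Irf8 rose and Kit fell (1181 and 1070 FPKM against 1434 and 1576 FPKM). The conventional dendritic cell gene Clec10a and the erythroid gene Hbb-bs fell. Hbb-bs was high in control library 1 alone (17.4 and 52.4 FPKM in HDAC3-deficient LMPPs against 2692 and 40.4 FPKM in control LMPPs), and no macrophage gene was high enough to test. Their part in the changes of the secretory genes was not tested.

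In CD115-CDPs none of the 40 members tested passed in either direction, as none of the 10832 genes tested did (0% higher and 0% lower, smallest limma adjusted p 0.11). At an unadjusted p below 0.05, 332 genes were higher and 644 lower, 4 members being higher (Trib3, Asns, Herpud1 and Ssr3) and 0 lower. The HDAC3-deficient libraries correlated less well with each other (Pearson r = 0.871 across genes) than the control libraries did (r = 0.977). HDAC3-deficient library 2, the one with fewer genes detected, was left out in 1 alternative. The median log2 change was then −0.02 for the XBP1-type genes and 0.91 for the ATF4 arm, against −0.08 for all genes. Without HDAC3-deficient library 1 these medians were 0.13 and −0.49, against −0.22 for all genes. Trib3 was not tested in either alternative. These values set aside the spread between the HDAC3-deficient libraries. In FPKM, 8 members were higher in both HDAC3-deficient libraries than in either control (20%), against 15.2% of all genes tested, and 3 were lower in both (7.5%), against 28.4%. The median log2 change was 0.09 for the XBP1-type genes and 1.05 for the ATF4 arm, against −0.16 for all genes. Trib3, at 0.53 and 0 FPKM in control CD115-CDPs, passed the filter of 1 FPKM only through its HDAC3-deficient libraries. With at least 5 FPKM in 2 libraries required, Trib3 was not tested and the ATF4-arm median was 0.21. The XBP1-type median was then 0.11 and that of all genes −0.14.

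Trib3 and Asns had the largest differences in CD115-CDPs, as in pDCs. Trib3 had 6.23 and 2.61 FPKM in HDAC3-deficient CD115-CDPs against 0.53 and 0 FPKM in control CD115-CDPs (log2 2.67 ± 0.73 SE, limma unadjusted p = 0.012, adjusted p = 0.43). Asns had 14.6 and 36.1 FPKM in HDAC3-deficient CD115-CDPs against 3.48 and 9.48 FPKM in control CD115-CDPs (log2 1.90 ± 0.65 SE, limma unadjusted p = 0.028, adjusted p = 0.51). Both had no overlap between genotypes, and Asns passed once the replicate number was used as a block. Atf4 had 70.6 and 26.5 FPKM in HDAC3-deficient CD115-CDPs against 47.5 and 29.4 FPKM in control CD115-CDPs, and Ddit3 had 14.9 and 6.51 against 12.8 and 11.2 FPKM. For Atf4 and Ddit3 the HDAC3-deficient libraries lay on either side of the controls. Chac1 was listed at 0.89 and 0 FPKM in HDAC3-deficient CD115-CDPs against 0.09 and 0 FPKM in control CD115-CDPs.

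Among the secretory genes of CD115-CDPs, Herpud1, an ER membrane protein of the degradation machinery, had 214 and 341 FPKM in HDAC3-deficient cells against 126 and 147 FPKM in control cells (log2 0.99 ± 0.31 SE, limma unadjusted p = 0.022, adjusted p = 0.48). Hspa5 had 519 and 909 FPKM in HDAC3-deficient CD115-CDPs against 361 and 396 FPKM in control CD115-CDPs (log2 0.86 ± 0.34 SE, limma adjusted p = 0.55). Ssr3 had 145 and 215 FPKM against 92.8 and 102 FPKM in control cells, without overlap. Ssr1 (90.6 and 311 FPKM in HDAC3-deficient cells against 78.1 and 108 FPKM in control cells) and Canx (221 and 620 against 197 and 241 FPKM) were high in HDAC3-deficient library 2 alone. Calr had 641 and 398 FPKM in HDAC3-deficient CD115-CDPs against 348 and 413 FPKM in control CD115-CDPs, high in HDAC3-deficient library 1. Derl3 had 3.48 and 0 FPKM against 2.83 and 1.95 FPKM, Ern1 20.2 and 9.02 against 24.0 and 13.4 FPKM, and Atf6 17.7 and 13.5 against 12.7 and 12.9 FPKM. Xbp1 had 69.0 and 62.5 FPKM in HDAC3-deficient CD115-CDPs against 81.7 and 73.2 FPKM in control CD115-CDPs, below both controls by less than a passing difference (adjusted p = 0.77 by limma). The granulocyte progenitor genes summed to 3526 and 2478 FPKM in HDAC3-deficient CD115-CDPs against 1061 and 1245 FPKM in control CD115-CDPs, and the pDC genes to 1242 and 583 against 3234 and 2492 FPKM, with 0 of 6 and 0 of 9 tested genes passing. Their part in these values was not tested.

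The 2 arms can be set against each other within each library. The mean log2(FPKM + 0.5) of the 5 ATF4-arm genes minus that of the 34 XBP1-type genes was −3.31 and −3.32 in HDAC3-deficient pDCs against −4.41 and −4.31 in control pDCs. It was −3.10 and −3.86 in HDAC3-deficient CD115-CDPs against −4.27 and −4.54 in control CD115-CDPs, and −2.96 and −2.94 in HDAC3-deficient LMPPs against −2.56 and −2.77 in control LMPPs. The difference was thus higher in HDAC3-deficient cells in pDCs and CD115-CDPs and lower in LMPPs, without overlap in any of the 3 cell types. In pDCs both terms contributed: the XBP1-type mean was 6.18 and 6.07 in HDAC3-deficient pDCs against 6.46 and 6.53 in control pDCs, and the ATF4-arm mean 2.88 and 2.75 against 2.05 and 2.22. The ATF4-arm term in pDCs includes genes near the floor of this scale. In control pDCs Asns stood at 0.28 and 0.86 FPKM, Trib3 at 0.05 and 0.08 FPKM, and Chac1 at 0.03 and 0.04 FPKM. In CD115-CDPs only the ATF4-arm term raised the difference, with means of 3.45 and 2.68 in HDAC3-deficient libraries against 2.12 and 1.95 in controls. In control CD115-CDP library 2, 2 of its 5 genes stood at 0 FPKM. The XBP1-type mean in CD115-CDPs was 6.54 and 6.54 in HDAC3-deficient libraries against 6.39 and 6.49 in controls, higher and so opposite to pDCs. In LMPPs the ATF4-arm means overlapped, at 3.42 and 3.44 in HDAC3-deficient LMPPs against 3.68 and 3.43 in control LMPPs. These means weigh each gene equally. Trib3 and Asns had the largest log2 changes among the tested ATF4-arm genes in pDCs and CD115-CDPs, and Ddit3 in LMPPs (−1.29, with 0.14 for Trib3 and −0.01 for Asns). With 2 libraries a genotype an exact two-sided permutation test cannot go below 0.333, so the difference is given as a description.

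**Figure D3:**
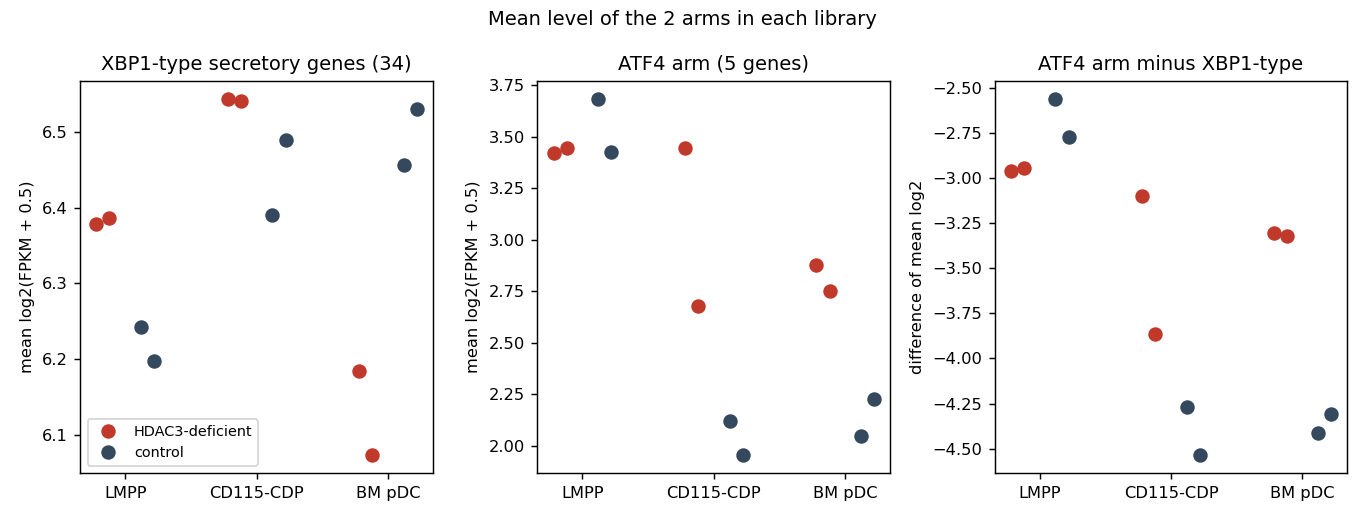
Mean log2(FPKM + 0.5) of the 34 XBP1-type secretory genes (left), of the 5 ATF4-arm genes (middle) and their difference (right) in each library, with HDAC3-deficient libraries in red left of control libraries in blue; vertical axes do not start at 0. In pDCs the difference is −3.31 and −3.32 in HDAC3-deficient libraries against −4.41 and −4.31 in control libraries, and in LMPPs the HDAC3-deficient libraries are the lower ones.

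The same pathways were followed through 7 further lists of 168 genes that hold no member. In pDCs 54 of the 160 tested fell (33.8%), against 22.5% of all genes, and 25 rose (15.6%), against 21.6%. The lists of secretion leaned down: 16 of 27 other translocation and N-glycosylation genes fell and 1 rose, as did 9 and 1 of 20 other degradation genes, 13 and 2 of 31 ER to Golgi transport genes, and 8 and 0 of 24 other folding genes. Sil1, the nucleotide exchange factor of BiP, had 22.2 and 19.4 FPKM in HDAC3-deficient pDCs against 50.3 and 53.3 FPKM in control pDCs, a change of 0.445-fold, and the disulfide isomerase Pdia5 changed 0.537-fold. Edem3, a mannosidase of the same family as Edem1 and Edem2, had 9.72 and 7.94 FPKM against 20.6 and 20.5 FPKM in control pDCs (0.471-fold), and Ubxn4, which links the ATPase p97 to the ER, changed 0.653-fold. Sec11c, a catalytic subunit of the signal peptidase that acts with Spcs1 to Spcs3, had 111 and 93.1 FPKM against 183 and 197 FPKM in control pDCs (0.590-fold). Ostc, of the oligosaccharyltransferase, changed 0.641-fold, and the cargo receptor Tmed3 and the COPII coat gene Sec24d changed 0.620-fold and 0.662-fold.

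The lists tied to ATF4 held more genes that rose than fell in pDCs. Of 23 other ATF4 targets 10 rose (43.5%) and 3 fell (13%), and of 20 cytosolic tRNA synthetases 8 rose (40%) and 1 fell (5%). Over all genes tested 21.6% rose and 22.5% fell. The medians of these lists were close to that of all genes (0.04 and 0.16, against −0.01). In FPKM, 12 of the 23 ATF4 targets were lower in both HDAC3-deficient libraries than in either control (52.2%) and 10 were higher (43.5%), beside 48.9% and 27.2% of all genes. Of the tRNA synthetases 9 were higher in both (45%) and 6 lower in both (30%). Ddit4, an inhibitor of mTORC1, had 92.8 and 183 FPKM in HDAC3-deficient pDCs against 24.1 and 22.2 FPKM in control pDCs, a change of 6.57-fold. Phgdh, the first enzyme of serine synthesis and also an ATF4 target, fell, with 26.4 and 24.7 FPKM against 65.9 and 61.9 FPKM (0.439-fold). The valyl and cysteinyl tRNA synthetase genes Vars and Cars changed 1.64-fold and 1.63-fold. Among 15 other sensors, kinases and phosphatase genes 3 rose (20%) and 4 fell (26.7%), shares near those of all genes. Creb3l2, an ER-anchored transcription factor that drives COPII genes, was at 0.468-fold and Bloc1s1, an mRNA that IRE1 cleaves, at 0.498-fold.

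**Figure D4:**
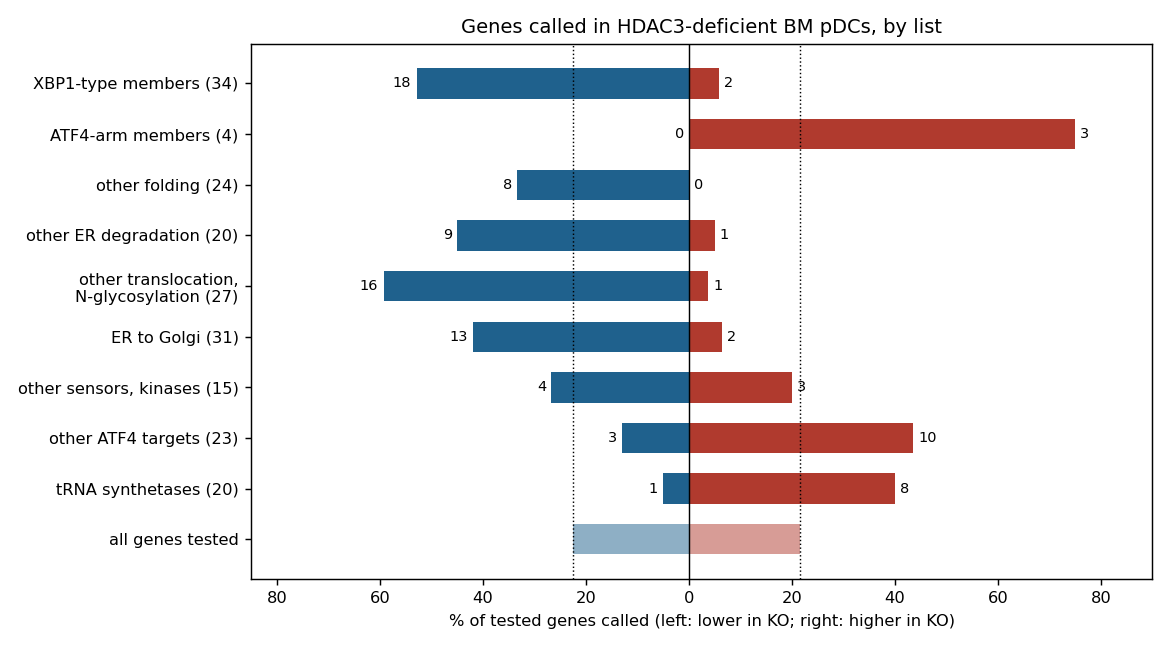
Percentage of the tested genes of each list called lower (left, blue) or higher (right, red) in HDAC3-deficient BM pDCs, with the number of genes tested in parentheses and the number called at the bar ends. The bottom row and the dotted lines give all 12716 genes (22.5% lower, 21.6% higher); the secretion lists reach 59.3% lower, and the ATF4 targets and tRNA synthetases 43.5% and 40% higher.

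In LMPPs 7 of the 158 further genes tested rose (4.43%), against 4.31% of all genes, and 10 fell (6.33%), against 18.8%. Ppp1r15a (GADD34), the stress-induced regulator of the eIF2alpha phosphatase, had 70.9 and 48.8 FPKM in HDAC3-deficient LMPPs against 164 and 174 FPKM in control LMPPs, a change of 0.350-fold (limma adjusted p = 0.00011). In pDCs it rose, with 115 and 127 FPKM in HDAC3-deficient pDCs against 82.3 and 79.5 FPKM in control pDCs (1.64-fold, edgeR adjusted p = 0.0015), so it fell in LMPPs and rose in pDCs as Ddit3 did; its pDC values were picked out after they were seen. Vldlr, a lipoprotein receptor, fell to 0.160-fold in LMPPs, and Mthfd2, a mitochondrial folate enzyme, rose 2.04-fold, with 32.0 and 39.0 FPKM in HDAC3-deficient LMPPs against 17.4 and 16.7 FPKM in control LMPPs. The tRNA synthetase genes Farsa and Mars rose 1.66-fold and 1.47-fold, and Rpn1, of the oligosaccharyltransferase, rose 1.53-fold. The genes Herpud2, Ngly1, Tram1, Qsox1, Creb3l2 and Sec24d fell, between 0.429-fold and 0.696-fold. In CD115-CDPs none of the 155 further genes tested passed.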

How the data were processed

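Sorted LMPPs, CD115-CDPs and BM pDCs were profiled by RNA-seq, 12 libraries in all. Bowtie2, RSEM and build mm10 are named in the processing notes of the submitters, with no versions. The authors deposited FPKM per gene for LMPPs and CD115-CDPs, and expected counts, TPM and FPKM for pDCs; TPM was not used. Gene IDs were matched to symbols through the RefSeq table (GRCm38.p6). LMPP and CD115-CDP values were tested with limma 3.58.1 (trend) on log2(FPKM + 0.5), keeping a gene if 2 or more of the 4 libraries reached 1 FPKM, and rounded pDC expected counts with edgeR 4.0.16 (filterByExpr, TMM, quasi-likelihood), in R 4.3.3. p-values were two-sided and adjusted by Benjamini-Hochberg over all genes tested, with calls below 0.05. The scripts were tested on simulated data. Genotypes came from the sample titles. Alternatives were leaving out each library, a replicate block, other pseudocounts, filters and scalings, DESeq2 1.42.0 for counts, and limma on pDC FPKM. FPKM is relative to all mapped fragments, so a shift of a few abundant genes moves every other value.

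The members, role groups and further lists were chosen with earlier results of these data known. Values in every library are given for Xbp1, Atf4, Hspa5 and Ddit3, for called members up to the 8 with the smallest p in a cell type, and for up to 2 further members per role group with the largest change; from each further list up to 2 called genes with the smallest p are named. Reads shared by near-identical copies are divided by estimation in RSEM, so such genes are less certain. Marker lists of other cell types were summed per library.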

Additional observations from a re-analysis of the deposited data

Results flagged for a closer look

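Some members moved one way in every HDAC3-deficient library of 1 cell type and the opposite way in every HDAC3-deficient library of another. The tables were normalised separately and the difference between cell types was not tested, so each value is the difference of 2 log2 changes (HDAC3-deficient over control), with its own scale in each cell type. Only for Ddit3 did both changes pass, lower in LMPPs and higher in pDCs. Its log2 change in pDCs minus that in LMPPs was 1.99.

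For 14 further members the same difference, pDCs minus LMPPs, was negative. Of the members, 50% were higher without overlap in LMPPs and 72.5% lower without overlap in pDCs. The shares of all genes tested were 17.6% and 48.9%. How many genes of the whole tables meet both conditions was not counted, so the 14 are a list and not a result about each gene. Among the chaperones it was −0.66 for Hspa5, −0.59 for Hsp90b1, −0.74 for Canx, −0.38 for Pdia3, −0.50 for Pdia6, −0.74 for Manf and −0.59 for Hyou1. In the degradation group it was −0.42 for Herpud1. Among the translocation genes it was −0.63 for Sec61a1, −1.08 for Sec61b, −0.75 for Sec61g, −0.57 for Ssr1, −1.03 for Ssr2 and −0.64 for Spcs2. The pDC change passed for Canx, Pdia6, Manf, Hyou1, Sec61b, Ssr2 and Spcs2, and the LMPP change for Sec61a1. Over all genes tested the median log2 change stood at −0.24 in LMPPs and −0.01 in pDCs, and another scaling moves these differences.

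The pDC log2 change minus that in CD115-CDPs was −1.003 for Hspa5, −0.70 for Creld2 and −1.12 for Herpud1. For Manf the log2 change in CD115-CDPs minus that in LMPPs was −0.44. The CD115-CDP changes of these genes did not pass.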

How the results depend on the processing

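In LMPPs the members called higher were 3. They were 6 with median-ratio scaling, 1 without the variance trend and 0 without a filter, and were lost without either control library. Those called lower were 2, and 1 with median-ratio scaling, quantile normalization, no filter or no trend. A fit with a library left out keeps 1 library of a genotype, so its number of calls is not given here. The XBP1-type median log2 change in LMPPs then ran from 0.16 to 0.27. Over all genes the split of 480 higher and 2096 lower became 863 and 999 with median-ratio scaling and 777 and 874 with quantile normalization. In CD115-CDPs the members higher were 0, with 1 (Asns) under the replicate block and 0 to 11 with a library left out, and those lower were 0, with 0 to 8. In pDCs the members higher were 5, with 3 to 7 when a library was left out, and those lower were 18, with 7 to 21. Limma on pDC FPKM gave 4 higher and 25 lower, and 1881 and 3696 over all genes against 2753 and 2858. Library numbers are not said to pair samples, and deviations of same-numbered libraries correlated at −0.10, 0.24 and −0.23 in LMPPs, CD115-CDPs and pDCs. The replicate block gave 3 higher and 3 lower members in LMPPs, 1 and 0 in CD115-CDPs, and 5 and 15 in pDCs.

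Log2 changes that turned direction all belonged to members that did not pass in that cell type. In LMPPs with median-ratio scaling Asns was at 0.24, Atf4 at 0.25 and Atf6 at 0.23, and with quantile normalization Asns was at 0.23, Atf6 at 0.41 and Derl3 at 0.19. With a library left out, LMPP values ran from −0.57 to 0.55 for Asns, −0.10 to 0.086 for Atf4, −0.21 to 0.20 for Atf6, −0.05 to 0.33 for Trib3 and −0.002 to 0.18 for Xbp1. In CD115-CDPs they ran from −0.49 to 0.91 for Atf4, −0.84 to 0.30 for Ddit3, −2.51 to 0.48 for Derl3, −0.96 to 0.17 for Ern1 and −0.018 to 1.76 for Ssr1, and in pDCs from −0.20 to 0.093 for Ern1. The cause of these moves was not tested. Depth limits Trib3 and Chac1 in pDCs, and is unknown in the FPKM tables.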
